A study of Mus musculus with 60 samples.

Results

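Mouse tissues were compared for 35 genes of fatty acid and sterol synthesis, chosen by symbol from the 54532 genes of the deposited count table. They are 16 genes that make, desaturate or elongate fatty acids, 16 enzymes of the sterol pathway and 3 regulators, and each symbol matched 1 row. The animals were 6-week-old female C57BL6/J mice, perfused through the heart with PBS and EDTA, with no other treatment or genotype named. Whole pieces of 15 tissues were taken from 4 replicates each, which gave 60 libraries: liver, skin, kidney, brain, heart, lung, colon, small intestine, female reproductive tract, inguinal and mesenteric lymph node, spleen, thymus, bone marrow and blood. The blood samples are labelled as mononuclear cells. The counts are reads from the 3′ ends of polyadenylated RNA, and levels are given as CPM, each library's counts scaled to a common total with TMM factors, which are not divided by gene length. Levels of different genes are therefore not ranked against each other, and a sum over genes is weighted towards its most abundant members. A lower level in a piece of tissue can come from fewer cells of a type or from less RNA per cell, which cannot be told apart here. No label says whether samples with the same replicate number came from the same mouse, so the p-values measure the spread between these samples.

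Fatty acid synthesis starts from citrate, which Acly cleaves to cytosolic acetyl-CoA. Acaca and Acacb carboxylate it to malonyl-CoA, and Fasn builds palmitate. Scd1 and Scd2 insert the first double bond, the Elovl enzymes lengthen the chain, and Fads1 and Fads2 desaturate polyunsaturated chains. The sterol pathway also starts from acetyl-CoA: Hmgcs1, Mvk, Pmvk, Mvd, Idi1 and Fdps lead through mevalonate to farnesyl diphosphate, Fdft1 and Sqle make and oxidise squalene, and Lss closes it to lanosterol. Cyp51, Tm7sf2, Msmo1, Nsdhl, Hsd17b7, Sc5d and Dhcr7 then convert lanosterol to cholesterol. Both branches are known targets of the sterol regulatory element-binding proteins, encoded by Srebf1 and Srebf2, which Insig1 holds back in the endoplasmic reticulum when sterols are plentiful.

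Library totals ranged from 353605 to 5211133 counts, with a median of 2649668. The shallowest library was replicate 3 of the female reproductive tract, and colon and lung libraries held at most 4.39% mitochondrial counts against at least 6.3% in all others. Mitochondrial rRNA made at most 0.928% of colon and lung counts and Malat1 at most 0.0282%, against at least 4.33% and 0.131% elsewhere. For colon and lung, effects of tissue and of a difference between libraries cannot be told apart. An earlier look at these data had singled out 5 libraries as standing apart from the others of their tissue: female reproductive tract replicates 3 and 4, brain replicate 3, liver replicate 4 and colon replicate 2. Without these 5, 30 of the 31 named fold changes in their 4 tissues and in liver against brain kept their call. The exception is given where it falls. The labelled tissues were checked on marker lists. Defining markers were present and called higher there, for example 7 of 7 hepatocyte markers in liver, 7 of 7 oligodendrocyte markers in brain, 6 of 6 keratinocyte markers in skin and 4 of 4 leukocyte markers in each of bone marrow, both lymph nodes, blood, spleen and thymus. Some gut markers appeared elsewhere. In brain replicate 3, Paneth cell markers summed to 660 CPM (others 7.54 to 11.6 CPM) and enterocyte markers to 89.6 CPM (others 3.12 to 5.3 CPM). In liver replicate 4, Paneth cell markers summed to 397 CPM (others 32.9 to 47.7 CPM). Their source was not tested. Of the 35 genes, 34 had enough reads to be tested. Elovl3, an elongase of saturated very long chains, was left out with 74 reads in all, of which liver held 31 and skin 34.

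For every tissue, edgeR's quasi-likelihood test set it against the average of the 14 remaining ones, each given the same weight. Calls needed an adjusted p under 0.05 and an absolute log2 fold change over 1. The adjustment ran over all 18562 tested genes. The fold change averages the other tissues on the log scale, while mean levels printed here are arithmetic. The SE beside a fold change is its absolute value divided by the square root of the test's F value, not a separate estimate. Elovl2, Elovl4 and Idi1 had 3 reads or fewer in 8, 9 and 5 tissues. The sizes of their fold changes against the other 14 depend on fitted values there, which the SE does not cover. Because each mean contains the other tissues, a gene with 1 very high tissue has a raised reference in all others. Some of the genes share 3′ exon sequence with a neighbour. In the last 1000 exonic bases, Fdft1 shares 774 bases with Ctsb on the opposite strand, Fdps 641 with a predicted gene on the same strand, Cyp51 166 with Akap9, Srebf1 109 with Rai1 and Elovl1 53 with Cdc20. Whether the counting used strand could not be settled from the labels, and the levels of these 5 genes are less certain.

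Promoters of the genes are described as sequence only, and their relation to levels across tissues was not tested. A RefSeq table (build GRCm38.p6) held 35 promoters of 28 of the genes, each from 250 bases before to 50 after a transcription start. Among the 13 sterol enzymes in it, every gene had at least 1 promoter with the letters CCAAT, the core of a box bound by NF-Y, on either strand (ATTGG on the other). This was 13 of their 16 promoters, or 81.2%, against 37.4% of all 32851 promoters in the table and 7 of 14 promoters of fatty acid genes. The Sp1 core GGGCGG, searched on both strands, was likewise in 81.2% of sterol enzyme promoters, 8 of 14 promoters of fatty acid genes and 35.7% of all. The sets of promoters were not matched for base composition. The sterol regulatory element written as TCACNCCAC was in 1.24% of all promoters and, among the 35, in that of Hmgcs1 alone. Overlap of a match of one motif with a match of another was not examined, and a match is a description of the sequence, not of binding. The promoters of Hmgcs1 (chr13:119690101-119690400, plus strand), Mvk (chr5:114444019-114444318, plus strand) and Nsdhl (chrX:72918271-72918570, plus strand) hold 4, 5 and 4 CCAAT boxes. The other promoters of sterol enzymes hold 0 to 3, with 1 in those of Cyp51, Lss, Tm7sf2 and Sc5d. The promoters of Hmgcs1, Mvk and Nsdhl, which hold the most, are printed 5′ to 3′. CCAAT or ATTGG, and the TCACNCCAC match of Hmgcs1, are in capitals.
Hmgcs1 promoter: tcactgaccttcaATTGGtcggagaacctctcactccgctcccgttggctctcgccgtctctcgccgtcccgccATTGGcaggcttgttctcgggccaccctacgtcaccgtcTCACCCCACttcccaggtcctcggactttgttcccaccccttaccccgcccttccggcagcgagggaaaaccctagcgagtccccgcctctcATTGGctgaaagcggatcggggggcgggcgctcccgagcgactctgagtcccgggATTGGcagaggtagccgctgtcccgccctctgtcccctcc
Mvk promoter: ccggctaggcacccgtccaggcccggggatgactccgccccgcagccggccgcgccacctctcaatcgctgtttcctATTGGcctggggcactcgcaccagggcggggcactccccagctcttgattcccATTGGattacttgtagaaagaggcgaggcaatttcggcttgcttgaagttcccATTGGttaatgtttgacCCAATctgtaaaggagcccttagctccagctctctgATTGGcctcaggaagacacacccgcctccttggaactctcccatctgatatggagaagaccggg
Nsdhl promoter: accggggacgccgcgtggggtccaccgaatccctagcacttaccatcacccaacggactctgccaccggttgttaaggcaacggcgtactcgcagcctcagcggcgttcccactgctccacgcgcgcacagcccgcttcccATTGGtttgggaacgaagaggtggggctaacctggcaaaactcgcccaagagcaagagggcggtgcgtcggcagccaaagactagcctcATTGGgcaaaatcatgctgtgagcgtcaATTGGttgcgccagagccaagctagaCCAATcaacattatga

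Summed over the 16 sterol enzymes, liver held 5195 ± 503 CPM (SD, n = 4) and its lowest library, at 4524 CPM, stood above every other library. Skin followed at 1080 ± 98.4 CPM and kidney at 987 ± 14.5 CPM, and these overlapped each other. Small intestine (756 CPM), brain (672 CPM) and colon (657 CPM) also overlapped as neighbours, and lung came next at 508 CPM. The lowest 6 tissues were inguinal lymph node (249.8 CPM), heart (224 CPM), spleen (222 CPM), thymus (217 CPM), blood (194 CPM) and bone marrow (169 CPM), each overlapping the next. All 16 sterol enzymes had their highest tissue mean in liver. The second highest was skin for 7, kidney for 4 and small intestine for 2, and the lowest was heart for 10 and bone marrow for 4. Shares of all tested genes by their highest or lowest tissue are not given, here or for the fatty acid genes below.

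**Figure D1:**
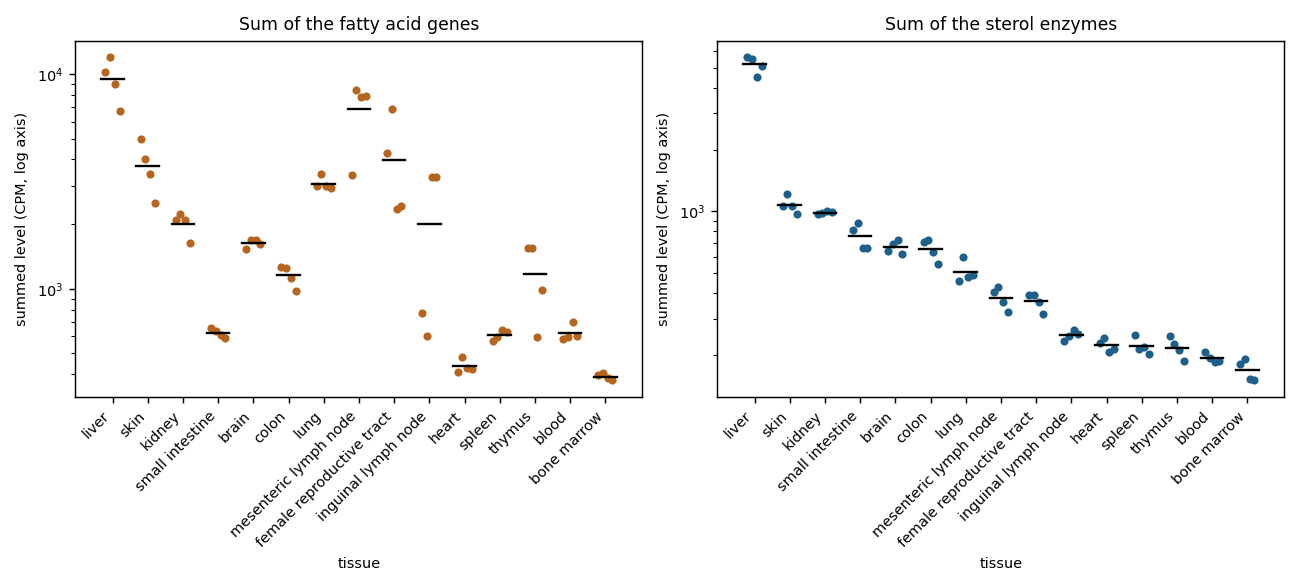
Summed level of the 16 fatty acid genes (left) and the 16 sterol enzymes (right) in each library, in CPM on log axes. Points are the 4 libraries of a tissue and bars their mean. Liver is alone at the top of the sterol panel, between 4524 and 5642 CPM, while in the fatty acid panel the liver, mesenteric lymph node and female reproductive tract libraries overlap.

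The fatty acid genes had another order and a wider spread. Their sum, to which Scd1 gave the largest part in liver and mesenteric lymph node, was 9489 ± 2200 CPM in liver, 6875 ± 2350 CPM in mesenteric lymph node, 3987 ± 2130 CPM in the female reproductive tract, 3729 ± 1040 CPM in skin and 3089 ± 215 CPM in lung, and neighbours in this order overlapped. Kidney (2012 CPM) and inguinal lymph node (2002 CPM) came next, then brain (1631 CPM), thymus (1170 CPM) and colon (1153 CPM). Small intestine, blood and spleen lay at 608 to 622 CPM, heart at 435 ± 33.5 CPM and bone marrow at 389.9 ± 12.7 CPM. Highest means were in liver for 7 of the 16 genes, in mesenteric lymph node for Acly, Acaca and Fasn, in kidney for Elovl7 and Fads3, in skin for Elovl1 and Elovl4, in brain for Scd2 and in heart for Acacb.

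**Figure D2:**
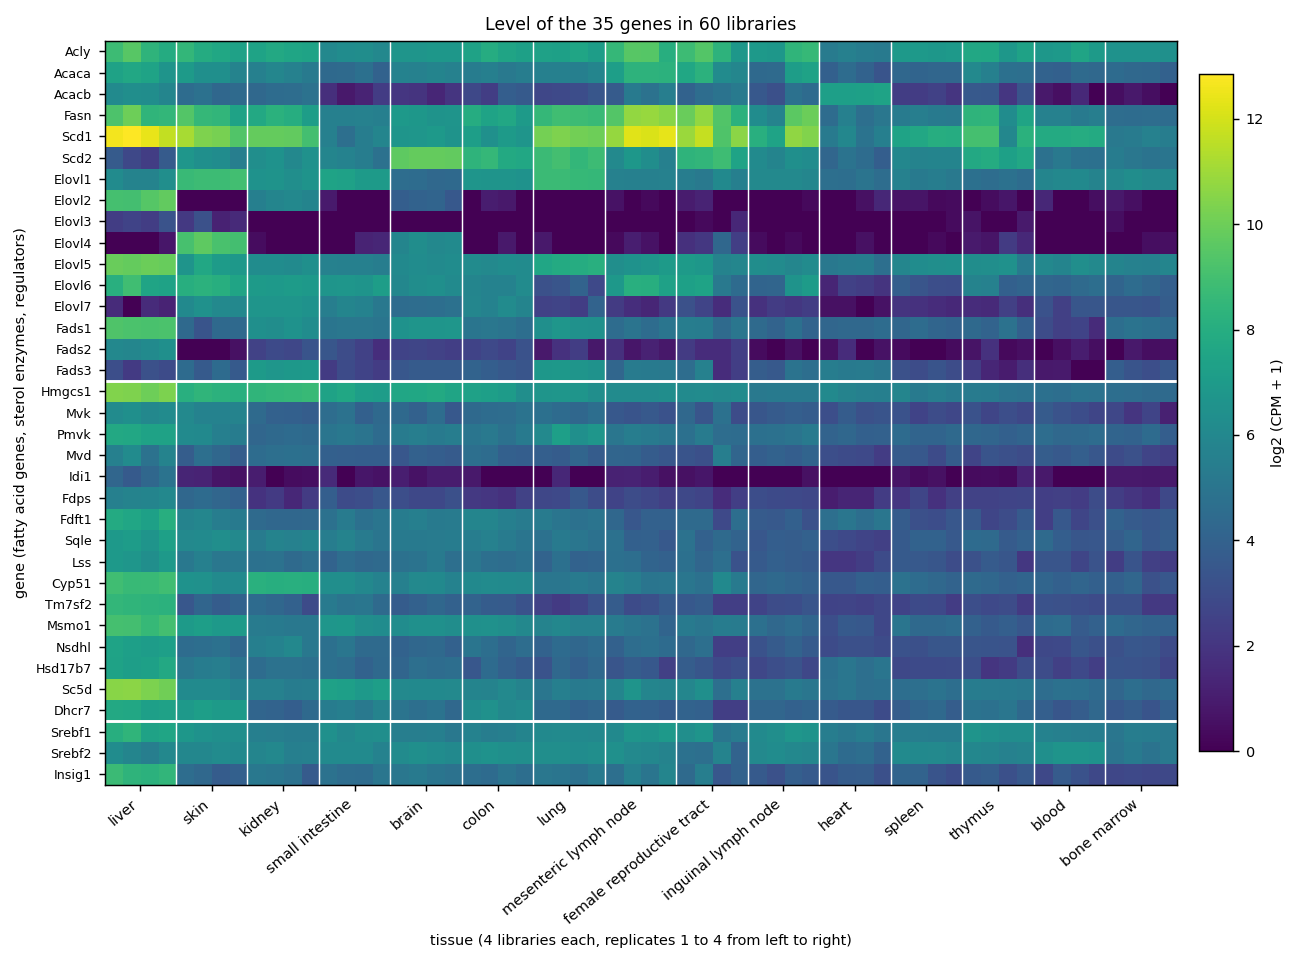
Level of each of the 35 genes in each of the 60 libraries, as log2 (CPM + 1), with tissues ordered by their summed sterol enzymes. White lines part the tissues and the 3 gene groups. The liver columns are brighter than the other tissues in most lines of the sterol block, whereas in the fatty acid block single genes stand out in single tissues, such as Elovl4 in skin, Elovl2 in liver and Acacb in heart.

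Over the 15 tissue means of log2 CPM with an offset of 1, the 120 pairs of sterol enzymes had a median Spearman correlation of 0.69 (range 0.15 to 0.94). The 105 pairs of fatty acid genes had a median of 0.25 (range -0.42 to 0.92), and both groups had medians near 0 with all tested genes (0.01 and 0). The genes closest to another were Lss and Cyp51 (0.94), and on the fatty acid side Fasn with Acaca (0.92) and Acly with Scd1 (0.92). Elovl6, which extends palmitate to stearate, was the fatty acid gene closest to the sterol enzymes, with a median correlation of 0.69 with them. These values describe 15 points from the same 60 libraries. Liver is the highest point for all sterol enzymes.

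In liver, 28 of the 34 tested genes were called higher and 3 lower, where 18.4% and 16.7% of all tested genes were called. All 16 sterol enzymes were among the higher ones, with a median log2 fold change of 3.40 against -0.25 over all genes. Without liver replicate 4 and the other 4 libraries that stood apart, 29 were higher and 3 lower. Hmgcs1, which makes HMG-CoA for the mevalonate pathway, was at 1370, 1330, 1020 and 1270 CPM in the 4 liver libraries, and kidney was next with a mean of 371 CPM. Sc5d, a desaturase of late sterol intermediates, was at 1490, 1550, 1270 and 1080 CPM, 9.29 times the level of small intestine. Every liver library was above all others for both genes. This held for 14 of the 16 sterol enzymes, the exceptions being Mvk and Mvd. The share of all tested genes with every liver library above all others is not given here, so this count has no background beside it.

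Tm7sf2, a reductase acting on the demethylated lanosterol ring, was at 357, 341, 310 and 307 CPM in liver, while the next tissue, small intestine, had 30 ± 7.0 CPM. Its log2 fold change was 5.15 (SE 0.10, adjusted p = 6.71e-46). Idi1, the isomerase that makes the second isoprene unit, was at 18.1, 11.5, 18.6 and 28.5 CPM in liver, and the mean of every other tissue was at or below 1.09 CPM. Its log2 fold change was 5.50 (SE 0.29, adjusted p = 7.52e-24).

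Among the fatty acid genes of liver, those for polyunsaturated chains stood farthest from the other tissues. Elovl2, which elongates such chains towards docosahexaenoic acid, was at 530, 507, 709 and 864 CPM, followed by kidney at 54.4 ± 6.95 CPM and brain at 14.1 ± 2.81 CPM. Its log2 fold change was 10.31 (SE 0.13, adjusted p = 1.48e-51), a size that rests on fitted values in the 8 tissues with 3 reads or fewer. No other tissue had a mean above 0.590 CPM, and lung and skin had no read, which allows up to 0.575 and 0.307 CPM (3 counts over the 4 libraries, counting error only). Fads2, the desaturase that opens this route, was at 63.7, 59.2, 70.3 and 82.7 CPM in liver against at most 6.43 CPM in any other tissue mean (log2 fold change 5.81, SE 0.19, adjusted p = 1.29e-34). Elovl5 (952 ± 45.2 CPM) and Fads1 (600 ± 29.3 CPM) also had every liver library above all others.

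Scd1, the main desaturase of newly made saturated chains, was at 6340, 7350, 5520 and 3240 CPM in liver, which overlapped mesenteric lymph node. Fasn was more variable between liver replicates, at 604, 1030, 333 and 362 CPM. The 3 genes called lower in liver included Scd2 and Elovl7. Scd2 was at 12.1, 5.77, 3.98 and 11.7 CPM against a mean of 186 CPM in the others (log2 fold change -3.59, SE 0.28, adjusted p = 3.69e-17), and these 4 libraries lay below those of all other tissues. Elovl7 was at 2.01, 0, 1.99 and 1.46 CPM (log2 fold change -2.74, SE 0.40, adjusted p = 2.59e-08). Liver was thus at opposite ends for the paralogues Scd1 and Scd2.

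**Figure D3:**
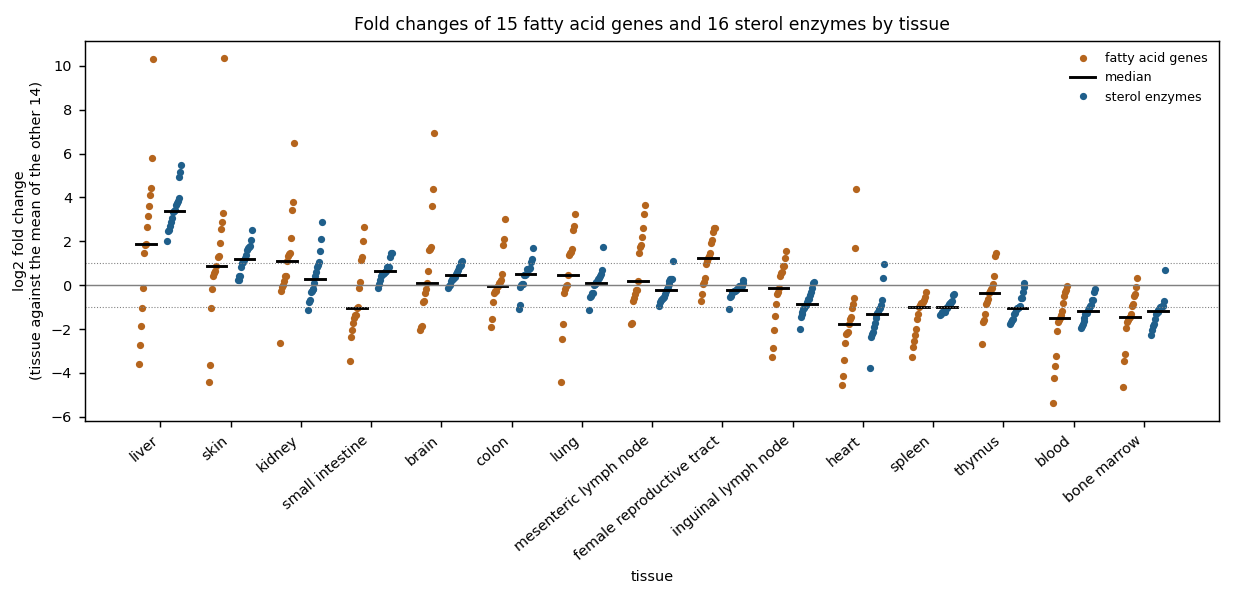
Log2 fold change of each tissue against the mean of the other 14 for the 15 tested fatty acid genes and the 16 sterol enzymes. Points are genes, black bars medians (genes with 0 to 3 reads in a tissue are drawn at fitted values that are not measured folds), and dotted lines mark log2 fold changes of 1 and -1. The sterol enzymes form a narrow column in most tissues, with all 16 points above 2 in liver, while the fatty acid genes of liver run from -3.59 to 10.31.

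Brain had 8 genes called higher and 3 lower of 34, where 27.7% and 16.1% of all genes were called, so the share of higher calls was near the background. The counts were the same without brain replicate 3 and the other 4 libraries. Of the 8, 6 were fatty acid genes. Scd2 was at 809, 899, 909 and 863 CPM, above every library of other tissues, with lung next at 441 CPM (log2 fold change 3.59, SE 0.11, adjusted p = 1.08e-35). Elovl4, which makes chains of very great length for retina, brain and skin lipids, was at 56.9, 77.4, 62.3 and 69.5 CPM (log2 fold change 6.94, SE 0.20). Elovl2 was at 13.4, 15.6, 16.9 and 10.5 CPM (log2 fold change 4.40, SE 0.26), and Fads1 at 93.2, 103, 103 and 106 CPM (log2 fold change 1.67, SE 0.10). By tissue mean, brain came second to skin for Elovl4, second to liver for Fads1 and after liver and kidney for Elovl2. Scd1 was lower in brain, at 104, 106, 118 and 96.1 CPM (log2 fold change -2.03, SE 0.39), as was Acacb, at 3.07, 2.84, 1.57 and 2.95 CPM (log2 fold change -1.92, SE 0.37). The sterol enzymes had a median log2 fold change of 0.45 in brain, and 2 of 16, Hmgcs1 and Msmo1, passed the test.

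When liver and brain were compared directly on their 8 libraries, 29 of 34 genes were higher in liver and 3 in brain, where 24% and 35.9% of 13523 tested genes were called. The counts were the same without liver replicate 4 and brain replicate 3. All 16 sterol enzymes were higher in liver, by 1.63 (Sqle) to 4.37 (Tm7sf2) on the log2 scale. The largest differences towards liver among genes above 5 CPM were Scd1 (5.66, SE 0.20), Elovl2 (5.46, SE 0.18), Acacb (4.67, SE 0.20), Tm7sf2 (4.37, SE 0.11) and Sc5d (4.28, SE 0.11). Towards brain they were Scd2 (-6.76, SE 0.16), Elovl7 (-4.12, SE 0.33) and Elovl4, which had 1 read in liver and is given by its levels, 0.183 CPM in liver and 66.6 CPM in brain. Srebf2 was at 59.2 ± 13.1 CPM in liver and 75.0 ± 6.11 CPM in brain, and the libraries overlapped.

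The desaturase paralogues Scd1 and Scd2 are neighbours on chromosome 19 (mm10, 44394455 to 44407879 on the minus strand and 44293674 to 44306864 on the plus strand). Their ratio within a library depends on scaling only through the offset added to each level. On the log2 scale with an offset of 0.5 CPM, Scd1 to Scd2 was 9.37 ± 1.06 (SD, n = 4) in liver and -3.03 ± 0.10 in brain. The difference of 12.41 had p = 0.0286 in a two-sided exact permutation test, the smallest that 4 against 4 libraries can give, and 0.0286 after Benjamini-Hochberg adjustment over 3 such ratio tests. Without liver replicate 4 and brain replicate 3 the difference was 12.88, with an exact permutation p of 0.1, the smallest that 3 against 3 can give. In all 4 libraries of each tissue the sign was the same. Mesenteric lymph node (5.72 ± 0.85) and skin (4.05 ± 0.25) came after liver, and colon (-1.26 ± 0.57) was the other tissue with every library below 0. Bone marrow (0.34 ± 0.41), thymus (0.41 ± 1.21) and small intestine (-0.06 ± 0.84) had libraries on both sides of 0.

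**Figure D4:**
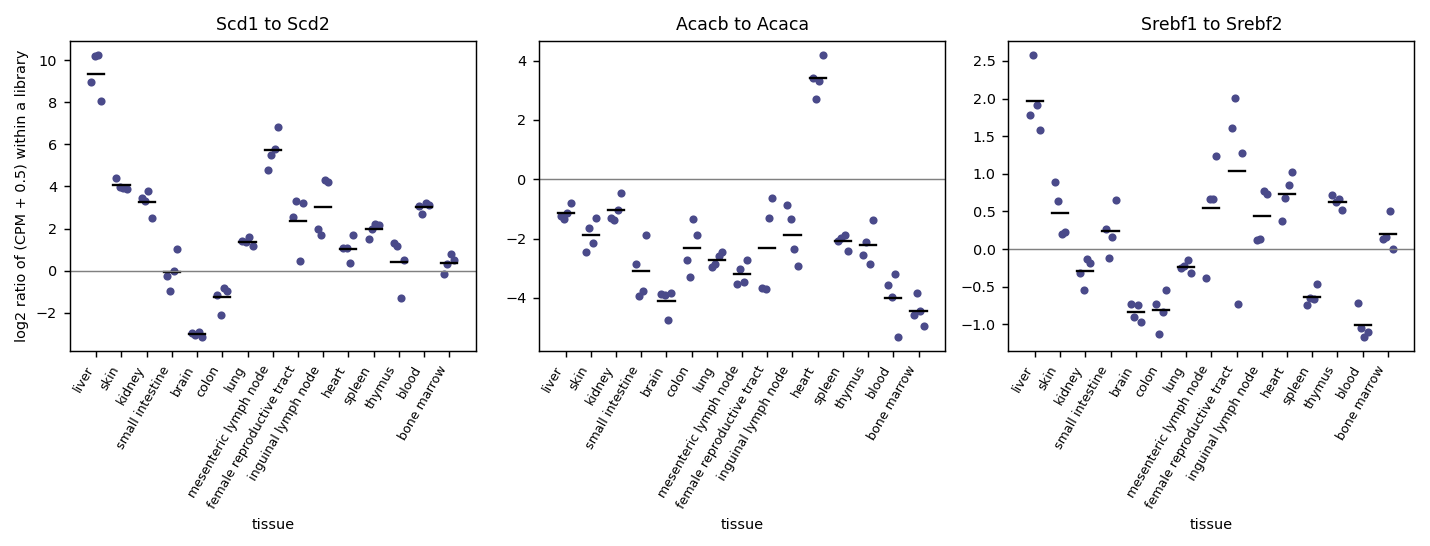
Log2 ratio of paralogues within each library, with an offset of 0.5 CPM, for Scd1 to Scd2, Acacb to Acaca and Srebf1 to Srebf2. Points are libraries and bars means of the 4 libraries. Scd1 exceeds Scd2 most in liver and is below it in brain, and heart is the one tissue with Acacb above Acaca.

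Skin had 17 genes called higher and 2 lower of 34, against 18.4% and 6.38% of all genes. The higher ones were 10 of the 16 sterol enzymes, with a median log2 fold change of 1.19 for that group, and 7 fatty acid genes. Elovl4 was at 545, 803, 572 and 510 CPM, 9.13 times the level of brain, and every skin library was above all others (log2 fold change 10.36, SE 0.14, adjusted p = 8.71e-52). The size of that fold change rests on fitted values in the 9 tissues with 3 reads or fewer. Elovl1, an elongase of saturated very long chains found in ceramides, was at 411, 447, 442 and 490 CPM (log2 fold change 2.87, SE 0.07), overlapping lung. Elovl6 was at 260, 307, 268 and 182 CPM (log2 fold change 2.55, SE 0.24) and Elovl7 at 67, 89.8, 65.1 and 63.6 CPM (log2 fold change 3.30, SE 0.13). All 4 genes were higher in 4 of 4 libraries than the mean of the others.

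The front-end desaturases of polyunsaturated chains were lower in skin. Fads1 was at 20.3, 9.03, 19.7 and 19.8 CPM (log2 fold change -1.05, SE 0.15, adjusted p = 9.62e-09), and it lost its call without replicate 2, at -0.79, which left 1 gene lower. Fads2 had 1 read in the 4 libraries, and the mean of the other tissues was 71.0 times higher with a counting interval of 12.8 to 2810. Among the sterol enzymes Dhcr7, the reductase of the last step, was at 119, 145, 127 and 129 CPM, second to liver at 185 CPM. Of 5 tested sebaceous gland markers 4 were higher in skin, and the marker sum was 122, 281, 145 and 119 CPM, with replicate 2 highest. The sum also reached 131 CPM in the female reproductive tract, 116 CPM in lung and 127 CPM in thymus, where 3 of 5 were called higher. Elovl4, Elovl6, Elovl7 and the untested Elovl3 (3.44, 8.08, 1.36 and 1.89 CPM) were also highest in replicate 2, and Fads1 lowest. Elovl1 was highest in replicate 4, and Acly, Fasn and Scd1 in replicate 1. Adipocyte markers summed to 3170, 1660, 3080 and 2580 CPM. The part of these cells in the skin levels was not tested.

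Kidney had 12 genes called higher and 1 lower, against 21.8% and 9.51% of all genes. Of the 12, 8 were fatty acid genes and 4 sterol enzymes. Elovl2 was at 45.2, 56.9, 61.7 and 53.7 CPM (log2 fold change 6.47, SE 0.20), second to liver. Elovl7 was at 101, 102, 102 and 93.2 CPM, above every library of other tissues (log2 fold change 3.81, SE 0.12). Fads3, a relative of Fads1 and Fads2 that acts on sphingoid bases, was at 128, 106, 116 and 117 CPM (log2 fold change 3.42, SE 0.17). Cyp51, the lanosterol demethylase, was at 288, 260, 278 and 265 CPM (log2 fold change 2.90, SE 0.09), second to liver at 446 CPM. For Elovl7, Fads3 and Cyp51 all 4 kidney libraries were above the mean of the others, whereas for Elovl2 that mean, raised by liver, was 47.9 CPM. The sterol enzymes of kidney did not move as 1 group: Cyp51, Hmgcs1, Nsdhl and Sqle were called higher and Fdps lower, at 2.72, 3.49, 1.69 and 3.73 CPM (log2 fold change -1.14, SE 0.23). Markers of steroid-making cells summed to 5.10, 9.08, 22.3 and 429 CPM in the 4 kidney libraries, while the sterol enzymes summed to 969, 984, 1004 and 993 CPM.

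Lung had 8 genes called higher and 2 lower, against 16.8% and 12.3% of all genes, and 7 of the 8 were fatty acid genes. Elovl1 was at 426, 429, 382 and 369 CPM (log2 fold change 2.71, SE 0.07) and Scd2 at 436, 509, 365 and 454 CPM (log2 fold change 2.53, SE 0.13). Fads3 was at 109, 116, 104 and 92.5 CPM (log2 fold change 3.26, SE 0.19), overlapping kidney. The single sterol enzyme was Pmvk, phosphomevalonate kinase, at 64, 153, 83.2 and 105 CPM (log2 fold change 1.75, SE 0.12). Elovl6 was lower, at 8.10, 9.55, 15.8 and 6.07 CPM (log2 fold change -2.43, SE 0.51), and Tm7sf2 at 4.86, 3.47, 5.28 and 8.34 CPM (log2 fold change -1.14, SE 0.29). Tm7sf2 lost its call without replicate 1 (-0.93) or replicate 2 (-0.83), which left 1 gene lower. Lung makes surfactant lipid in its epithelium, whose 4 markers were all called higher. The part of these cells in the lung levels was not tested.

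In the gut, colon had 6 genes higher and 1 lower (17.7% and 14.4% of all genes), and 5 and 1 without colon replicate 2 and the other 4 libraries. Small intestine had 7 higher and 8 lower (19.9% and 8.5%). The shares of higher calls in both were near the background. Elovl7 was high in both, at 59.2, 51.3, 73.5 and 54.3 CPM in colon (log2 fold change 3.03, SE 0.16) and 44.6, 55.6, 50.9 and 34.1 CPM in small intestine (log2 fold change 2.64, SE 0.14). Fads2 was at 5.07, 6.16, 5.01 and 8.58 CPM in colon and 9.66, 6.95, 4.66 and 2.17 CPM in small intestine, called higher in both (log2 fold changes 2.09, SE 0.40, and 2.03, SE 0.31). Scd2 (325, 370, 222 and 205 CPM) and Dhcr7 (76.1, 89.3, 63.5 and 73.4 CPM) were higher in colon, by 1.83 (SE 0.15) and 1.68 (SE 0.13). Sc5d (162, 152, 123 and 144 CPM) and Tm7sf2 (37.3, 30, 32.3 and 20.6 CPM) were higher in small intestine, by 1.49 (SE 0.10) and 1.47 (SE 0.16). The difference between colon and small intestine was not tested.

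Scd1 was low along the gut, at 146, 86.2, 126 and 103 CPM in colon (log2 fold change -1.89, SE 0.39) and 47.4, 24.8, 42 and 55.8 CPM in small intestine (log2 fold change -3.45, SE 0.44). Without replicate 4, 2 genes were lower in colon in place of 1. All 8 genes called lower in small intestine were fatty acid genes, among them the core of the pathway, Acly, Acaca, Fasn and Acacb. Acacb was at 2.30, 0.869, 1.43 and 3.79 CPM there (log2 fold change -2.34, SE 0.44). The sterol enzymes of small intestine had a median log2 fold change of 0.64 and the fatty acid genes -1.03.

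The female reproductive tract had 9 genes called higher and 2 lower (23.1% and 5.31% of all genes), and 10 and 1 without its replicates 3 and 4 and the other 3 libraries. The share of higher calls was near the background, and all 9 were fatty acid genes. Fasn was at 973, 1750, 650 and 298 CPM (log2 fold change 2.59, SE 0.27, adjusted p = 2.87e-12) and Scd1 at 1900, 3380, 623 and 1580 CPM (log2 fold change 2.42, SE 0.25, adjusted p = 1.78e-12), with replicates differing several-fold. Scd2 was at 320, 344, 460 and 171 CPM (log2 fold change 2.04, SE 0.14). Elovl4 was at 2.42, 3.25, 18.6 and 4.24 CPM (log2 fold change 2.60, SE 0.43), with replicate 3 apart. The lower genes were Srebf2, at 26.3, 24.6, 51.8 and 16.1 CPM (log2 fold change -1.18, SE 0.15), and Dhcr7, at 16.2, 14.9, 4.14 and 4.24 CPM (log2 fold change -1.07, SE 0.18). Dhcr7 lost its call without replicate 3 (-0.93) or replicate 4 (-0.80), which left 1 gene lower, and without the 5 libraries (-0.68). Fasn was at 3.22 without those 5. Keratinocyte markers were higher in this tissue for 6 of 6 genes and summed to 1750, 786, 1120 and 39 CPM. Markers of steroid-making ovary cells were higher for 4 of 4 tested genes and summed to 513, 580, 335 and 373 CPM, in the same order of replicates as the fatty acid gene sums. The part of these cells was not tested.

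The mesenteric lymph node had 8 genes called higher and 1 lower (17.2% and 4.57% of all genes), and 7 of the 8 were fatty acid genes. Scd1 was at 1810, 5010, 4370 and 5350 CPM (log2 fold change 3.64, SE 0.22, adjusted p = 2.79e-21) and Fasn at 676, 1730, 1830 and 1500 CPM (log2 fold change 3.27, SE 0.25). Acaca was at 144, 314, 313 and 299 CPM (log2 fold change 2.63, SE 0.21) and Elovl6 at 115, 269, 261 and 163 CPM (log2 fold change 2.19, SE 0.24). Replicate 1 was the lowest library for all 4 genes, and still above the mean of the other tissues. Elovl7 was the gene called lower, at 3.73, 2.18, 1.59 and 3.32 CPM (log2 fold change -1.71, SE 0.26), and 2 were lower without replicate 3. Sterol enzymes had a median log2 fold change of -0.22, or 0.14 with scaling to library totals alone, and the other higher gene, Idi1, was at 1.09 ± 0.418 CPM.

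In the inguinal lymph node 2 genes were called higher and 7 lower (17.1% and 6.7% of all genes). Fasn was at 76, 51.7, 771 and 984 CPM (log2 fold change 1.54, SE 0.29) and Scd1 at 275, 173, 1680 and 1380 CPM (log2 fold change 1.24, SE 0.28), so that replicates 3 and 4 stood far above replicates 1 and 2. Without replicate 4 neither was called, at 0.75 and 0.86, and 0 genes were higher. Without replicate 3, Scd1 was not called, at 0.60, and 1 gene was higher and 11 lower. Without replicate 2, 4 genes were higher. Hmgcs1 was even, at 35, 36.3, 37.6 and 38.3 CPM (log2 fold change -1.47, SE 0.12), as was the sum of the sterol enzymes, at 233, 247, 265 and 254 CPM. Fads2 had 4 reads in the 4 libraries, at 0.294, 0, 0.494 and 0 CPM, against a mean of 7.25 CPM in the others (log2 fold change -2.88, SE 0.59), and it lost its call without replicate 4, at -2.53.

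Adipocyte markers were high in several of these tissues. All 8 markers (Adipoq, Plin1, Cidec, Lep, Cfd, Fabp4, Lipe and Pparg) were called higher in the female reproductive tract and in mesenteric lymph node, and 7 of 8 in inguinal lymph node and in skin. In inguinal lymph node they summed to 265, 62.9, 3430 and 4270 CPM in replicates 1 to 4, beside fatty acid gene sums of 770, 601, 3318 and 3319 CPM. In mesenteric lymph node they summed to 1810, 5020, 6500 and 11200 CPM, beside 3367, 8420, 7798 and 7915 CPM, with replicate 1 the lowest in both. In the female reproductive tract the sums were 3760, 7100, 2100 and 3910 CPM beside 4269, 6898, 2352 and 2431 CPM, and in thymus 574, 628, 164 and 432 CPM beside 1555, 1543, 598 and 985 CPM. In skin the fatty acid genes did not follow the markers: beside the marker sums given above they summed to 4984, 4012, 3420 and 2500 CPM, and replicate 2 was lowest in markers and second in fatty acid genes. In thymus 1 of 8 adipocyte markers was called higher, and 4 of 4 brown adipocyte markers, which summed to 101, 58.2, 8.45 and 57.1 CPM with replicate 3 again lowest. The brown marker sum had a mean of 56.3 CPM in thymus. It was higher in heart (2350 CPM), the female reproductive tract (216 CPM), skin (144 CPM), kidney (90.3 CPM) and brain (60.6 CPM). Kidney, with 5 of the 8 adipocyte markers called higher, had sums of these of 601 to 977 CPM. Liver had an adipocyte marker sum of 78.7 to 113 CPM with the highest mean fatty acid gene sum. Mammary markers, of which 2 of 5 could be tested, summed to 1.32, 0.211, 11.4 and 9.58 CPM in inguinal lymph node. They were not particular to it: they summed to 12.1 to 13.4 CPM in thymus. In skin they reached 12.6 CPM and in mesenteric lymph node 5.33 CPM, each in replicate 1. The part of adipocytes in these levels was not tested.

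**Figure D5:**
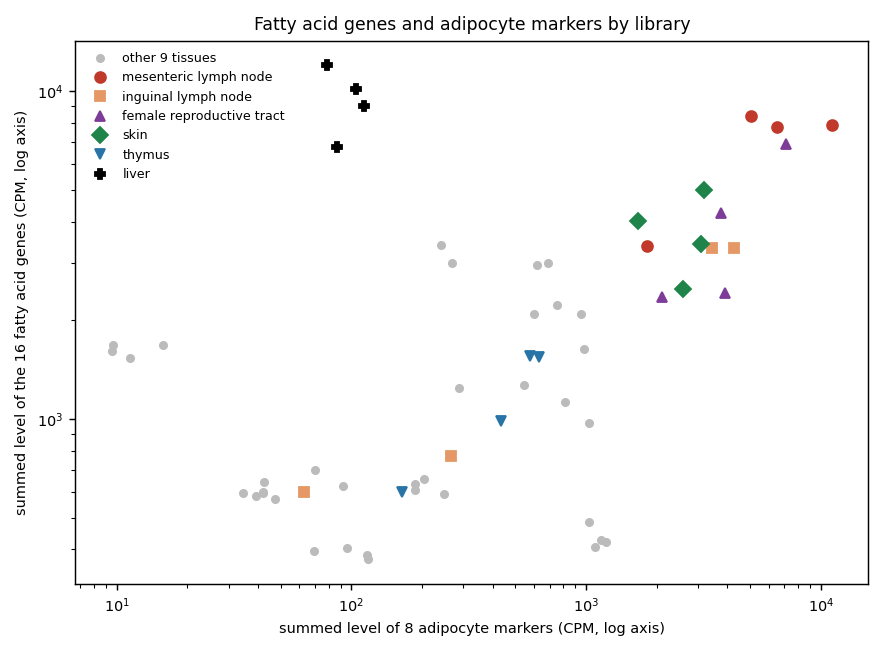
Summed level of the 16 fatty acid genes against that of 8 adipocyte markers in each of the 60 libraries, in CPM on log axes. Symbols mark 6 tissues and grey points the other 9. Inguinal lymph node replicates 1 and 2 (265 and 62.9 CPM of markers) lie low on both axes and replicates 3 and 4 high on both, while the liver libraries have fatty acid sums of 6741 CPM and more at marker sums of at most 113 CPM.

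Compared directly on 8 libraries, 7 of 30 genes were higher in mesenteric than in inguinal lymph node, where 5.45% of 13164 genes were called. In edgeR's test 0 genes were higher in the inguinal node, where 1.78% of all genes were called. At an unadjusted p below 0.05 there was 1 such gene, and DESeq2 also called 0. On the log2 scale, inguinal minus mesenteric, Scd1 was at -2.34 (SE 0.64, adjusted p = 0.0175), Acaca at -1.74 (SE 0.61, adjusted p = 0.0472) and Elovl6 at -1.73 (SE 0.59, adjusted p = 0.0423). All 3 lost their calls without replicate 2, at -1.90, -1.33 and -1.25, and Sc5d did too, at -0.89, which left 3 genes called. Acaca and Elovl6 also lost them without replicate 3, at -1.98 and -1.82, and in DESeq2, which called 5 genes. Insig1 was at 11.3 ± 2.31 CPM in the inguinal and 39.8 ± 14.6 CPM in the mesenteric node (log2 difference -1.93, SE 0.27, adjusted p = 6.42e-04). Cyp51 was at 17.6 ± 2.33 and 39.7 ± 9.94 CPM (-1.26, SE 0.17, adjusted p = 5.71e-04). Among the 7 called genes, the libraries of the nodes did not overlap for Scd1, Insig1, Cyp51, Hmgcs1 and Sc5d, and overlapped for Acaca and Elovl6. Some genes without a call, such as Lss and Elovl5, did not overlap either, and the share of all genes is not given. Hmgcs1 was at 36.8 ± 1.47 CPM in the inguinal and 73.4 ± 2.23 CPM in the mesenteric node, and kept its call without replicate 2. Fasn, at 471 ± 478 and 1430 ± 525 CPM, did not pass the test (adjusted p = 0.109).

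Heart had 23 of 34 genes called lower and 2 higher, against 12.9% and 20.7% of all genes. The lower ones included 12 of the 16 sterol enzymes, with a median log2 fold change of -1.33 for the group, or -1.25 with the one enzyme without a read, Idi1, set to the value of 3 counts. Elovl6 was at 1.51, 4.62, 4.10 and 2.81 CPM, below every library of other tissues (log2 fold change -4.16, SE 0.59). Elovl7 had 3 reads, and the mean of the other tissues was 62.8 times higher with a counting interval of 21.5 to 305. The higher genes were Acacb, at 154, 150, 158 and 173 CPM and above every other library (log2 fold change 4.40, SE 0.16, adjusted p = 2.04e-32), and Fads3, at 42.3, 37.5, 39 and 33.7 CPM (log2 fold change 1.69, SE 0.23). With scaling to library totals alone Fads3 lost its call, at 0.34.

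Acacb encodes the carboxylase at the mitochondrial surface, whose malonyl-CoA restrains fatty acid import for oxidation, and Acaca the cytosolic enzyme that feeds Fasn. On the log2 scale the ratio of Acacb to Acaca was 3.40 ± 0.61 (SD, n = 4) in heart and -4.09 ± 0.44 in brain. The difference of 7.49 had p = 0.0286 in the two-sided exact permutation test, again the smallest possible, and 0.0286 adjusted over the 3 ratios. Without brain replicate 3 it was 7.28. Heart was the single tissue with the ratio above 0 in every library (2.70 to 4.19), and in the other 14 tissues the tissue means ran from -4.45 in bone marrow to -1.05 in kidney.

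In bone marrow 19 genes were called lower (16.1% of all genes), in blood 19 (17.8%) and in spleen 14 (9.16%). In edgeR's test 0 genes were higher in each of these, where 17.6%, 18.1% and 17.8% of all genes were called. At an unadjusted p below 0.05 there were 0 higher genes in bone marrow and spleen and 1 in blood, and DESeq2 called 0 in each. The lower genes were from both branches: 7 fatty acid genes and 11 sterol enzymes in bone marrow, 9 and 9 in blood, 6 and 8 in spleen. In thymus 13 were lower and 2 higher (12.1% and 18.9% of all genes), with 9 sterol enzymes among the lower. Genes of cell division were highest in bone marrow, with 8 of 8 called higher and a sum of 4000 to 4100 CPM, and in thymus, with 8 of 8 and 1810 to 1970 CPM. Small intestine (8 of 8, 496 to 609 CPM) and colon (6 of 8, 276 to 381 CPM) had the next highest means, with sterol enzyme sums above those of all 4 blood-forming and blood tissues, while liver held 8.66 to 19.8 CPM and heart 12.1 to 20 CPM.

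Scd1 was at 36.2, 40, 49.2 and 42.6 CPM in bone marrow (log2 fold change -3.45, SE 0.44), and Acacb had 4 reads there, at 0.411, 0.860, 0.373 and 0 CPM (log2 fold change -4.65, SE 0.58). In blood Fads3 had 3 reads, and the mean of the other tissues was 84.6 times higher with a counting interval of 28.9 to 410. Elovl4 had no read in blood, which allows up to 0.341 CPM (3 counts over the 4 libraries), and its call was lost without replicate 1, 3 or 4. Elovl6 was at 13.6, 9.51, 7.42 and 7.15 CPM in spleen (log2 fold change -2.55, SE 0.43), and Fads2 had 2 reads there, with the mean of the others 49.6 times higher and a counting interval of 13.7 to 409. Its call was lost without replicate 4. In thymus Scd2 was higher, at 217, 239, 154 and 210 CPM (log2 fold change 1.35, SE 0.14). Fads3, at 4.12, 1.61, 0.939 and 2.28 CPM (log2 fold change -2.70, SE 0.43), and Msmo1, a demethylating oxygenase, at 15, 11.3, 13.6 and 10 CPM (log2 fold change -1.79, SE 0.16), were lower.

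Thymus and bone marrow, which both make blood cells, were compared on their 8 libraries. Of 30 tested genes 7 were higher in thymus and 3 in bone marrow, against 15.3% and 16.3% of 12183 genes. Acacb was higher in thymus by 4.08 (SE 0.61), Fasn by 3.21 (SE 0.34), Scd1 by 2.98 (SE 0.42), Scd2 by 2.52 (SE 0.15) and Dhcr7 by 1.11 (SE 0.19). Fads3 was lower by -2.28 (SE 0.36), Elovl7 by -1.98 (SE 0.31) and Elovl1 by -1.54 (SE 0.12). Dhcr7 lost its call without replicate 3, at 0.90, and Elovl1 with scaling to library totals alone, at -0.95. The thymus libraries were uneven for some of these genes. Fasn was at 328, 333, 73.9 and 181 CPM and Scd1 at 540, 538, 61.2 and 296 CPM, with replicate 3 lowest in both as in the marker sum. Without replicate 1, 4 genes were higher in thymus. Scd2 was also lowest in thymus replicate 3, at 154 CPM, and its level was 205 ± 36.2 CPM in thymus and 33.1 ± 5.63 CPM in bone marrow, with no overlap.

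Of the 3 regulators, Srebf1 and Srebf2 had narrower ranges of tissue means than any enzyme with reads in every tissue, while Insig1 ranged 60.8 times. Srebf2, whose product acts mainly on sterol genes, ran from 23.1 ± 7.04 CPM in heart to 93.3 ± 8.09 CPM in blood, a span of 4.03 times, and was at 59.2 ± 13.1 CPM in liver (log2 fold change 0.07, SE 0.13). Its median correlation with the sterol enzymes over the 15 tissue means was 0.17. Srebf1, whose product acts on fatty acid and sterol genes, was at 260, 335, 167 and 187 CPM in liver, with mesenteric lymph node next at 97.5 CPM, and liver was the one tissue in which it was called higher. Insig1, itself a known target of the pathway, was at 431, 327, 305 and 352 CPM in liver, 8.88 times the next tissue, and its median correlation with the sterol enzymes was 0.67.

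The log2 ratio of Srebf1 to Srebf2 was 1.97 ± 0.43 in liver and 0.63 ± 0.09 in thymus (SD, n = 4). The difference of 1.33 had p = 0.0286 in the two-sided exact permutation test, and 0.0286 adjusted over the 3 ratios. Without liver replicate 4 it was 1.46. The ratio was lowest in blood (-1.01 ± 0.20), brain (-0.83 ± 0.12) and colon (-0.81 ± 0.24), where every library had more Srebf2. In the female reproductive tract it ran from -0.73 to 2.00.

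A further list of 30 lipid synthesis genes that are not among the 35 was counted in the same fit. In liver 22 of the 30 were called higher, where 18.4% of all genes were. Kidney had 14 higher (21.8% of all genes), small intestine 10 higher and 4 lower (19.9% and 8.5%), mesenteric lymph node 9 and 3 (17.2% and 4.57%), and heart 9 and 9 (20.7% and 12.9%). In the female reproductive tract 6 were higher and 1 lower (23.1% and 5.31%), in skin 6 higher (18.4%), in brain 4 and 5 (27.7% and 16.1%), in colon 4 and 2 (17.7% and 14.4%), in lung 3 and 6 (16.8% and 12.3%) and in inguinal lymph node 2 and 3 (17.1% and 6.7%). Blood had 1 higher and 16 lower (18.1% and 17.8%), spleen 1 and 14 (17.8% and 9.16%), bone marrow 1 and 10 (17.6% and 16.1%) and thymus 1 and 9 (18.9% and 12.1%). Scd3, a desaturase paralogue, was at 62, 159, 60.7 and 60.8 CPM in skin, again with replicate 2 highest, against at most 5.66 CPM in any other tissue mean. Thrsp, a regulator of fatty acid synthesis, was at 644 CPM in liver, 558 CPM in mesenteric lymph node and 401 CPM in the female reproductive tract.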

How the data were processed

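RNA from 60 tissue samples was sequenced at its 3′ ends, and the deposited table holds the authors' raw counts per gene. Per the submitters' processing notes FastQC, STAR, featureCounts and mm10 were used; the sources used here name neither versions nor the strand setting. Positions are from GENCODE M21 (54409 of 54532 gene IDs matched). The 35 genes and all lists were chosen with earlier results of these data known.

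Libraries were grouped by the tissue in their labels. Genes were kept by edgeR's filterByExpr (minimum count 10, minimum total 15), scaled by TMM and fitted with edgeR 4.0.16 quasi-likelihood (R 4.3.3, limma 3.58.1), all 60 libraries in one fit for each tissue against the other 14, and the 8 libraries of a pair alone for 3 pairs. P-values were adjusted by Benjamini-Hochberg over all tested genes, and fits were tested on simulated data. Genes were named by size of change: up to 4 higher and 2 lower per tissue, or 5 each way per pair, among calls with at least 5 CPM. Other fold changes (Srebf2 in liver, Fasn between the lymph nodes) were chosen after their values were seen. Replicates differed by more than sampling noise (lowest chi-square per degree of freedom 1.65). Counting intervals are 95% exact Poisson and cover counting error only. Alternatives were DESeq2 1.42.0, other scalings, no filter, a replicate block, libraries left out and, for ratios, an offset of 2 CPM in place of 0.5.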

Additional observations from a re-analysis of the deposited data

Results flagged for a closer look

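In groups of 4 libraries, the sums of each gene group and the genes named in a tissue were searched for a library far from the other 3. Of 98 groups, 11 held one, and chance flags about 1 in 20 groups. The fatty acid gene sum of mesenteric lymph node replicate 1 was 3367 CPM against 7798 to 8420 CPM in the others, and its Acaca level was 144 CPM against 299 to 314 CPM. In lung replicate 2 the fatty acid sum was 3409 CPM (others 2944 to 3003 CPM), and in blood replicate 3 it was 701.6 CPM (others 582.7 to 599.4 CPM).

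In skin replicate 2, Elovl7 was at 89.8 CPM (others 63.6 to 67.0 CPM) and Fads1 at 9.03 CPM (others 19.7 to 20.3 CPM). Fads2 in skin replicate 4 was at 0.471 CPM, a single read, where the others had 0. Elovl4 in female reproductive tract replicate 3, the shallowest library, was at 18.6 CPM (others 2.42 to 4.24 CPM). Acacb in brain replicate 3 was at 1.57 CPM (others 2.84 to 3.07 CPM). Elovl7 was at 0 CPM in heart replicate 3 (others 0.503 to 0.562 CPM) and at 93.2 CPM in kidney replicate 4 (others 101 to 102 CPM).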

How the results depend on the processing

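Of 39 counts and ratios and 89 named fold changes, 0 reversed under any alternative run, and 15 fold changes lost a call under at least 1. Scaling to library totals alone had the most effect. Under it the genes called higher went from 6 to 11 in colon, 2 to 1 in heart, 2 to 4 in inguinal lymph node and 7 to 15 in thymus against bone marrow. Those called lower went from 2 to 0 in the female reproductive tract, 7 to 3 in inguinal lymph node, 1 to 4 in kidney, 2 to 1 in lung and in skin, 14 to 5 in spleen, 13 to 7 in thymus and 3 to 5 in liver against brain. The cause was not tested. It moved the median of all genes from -0.12 to -1.38 in heart and -0.25 to -1.22 in liver. In liver the genes higher went from 28 to 23 and the sterol median from 3.40 to 2.34, in heart the sterol median from -1.33 to -2.67, and in liver against brain the genes higher from 29 to 24. The median of the sterol enzymes changed sign in the female reproductive tract (-0.19 to 0.27), mesenteric lymph node (-0.22 to 0.14) and kidney (0.27 to -0.16). Among all called genes, the share higher went from 55.1% to 70.9% in colon, 81.3% to 93.6% in the female reproductive tract, 61.6% to 15.1% in heart, 71.8% to 87.1% in inguinal lymph node, 69.6% to 49.9% in kidney, 52.4% to 19.5% in liver, 57.8% to 73.7% in lung, 79% to 90% in mesenteric lymph node, 70.1% to 60% in small intestine, 66% to 83.2% in spleen, 61% to 80.3% in thymus, 40.1% to 21.8% in liver against brain, 48.4% to 74.3% in thymus against bone marrow and 24.6% to 38.3% between the lymph nodes. The female reproductive tract had 1 gene lower with DESeq2 size factors, without mitochondrial genes, without the 5 libraries and without colon and lung, the last chosen after seeing the data. DESeq2's test gave 2 lower in kidney and in mesenteric lymph node, and no filter gave 11 lower between the lymph nodes. Leaving out 1 replicate number at a time, the genes lower were 1 to 2 in colon, female reproductive tract, lung, mesenteric lymph node and skin, 7 to 11 in inguinal lymph node and 3 to 8 between the lymph nodes. The genes higher were 0 to 4 in inguinal lymph node and 4 to 7 in thymus against bone marrow. The ratio differences were 12.12 to 12.80, 7.30 to 7.79 and 1.13 to 1.42, each with an exact p of 0.1, the smallest that 3 against 3 can give. With an offset of 2 CPM they were 12.12, 6.82 and 1.32, and without the 5 libraries, chosen after seeing the data, 12.88, 7.28 and 1.46.

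With the replicate block, the ratio differences were 12.41, 7.49 and 1.33, each with an exact p of 0.125, the smallest that 4 pairs can give, and 0 named fold changes lost a call. The numbers did not meet the rule for pairing, a correlation over 0.1 in every pair. Same-numbered libraries of different tissues had a median correlation of 0.015 (-0.14 to 0.21), over 0.1 in 7 of 420 pairs. Libraries with different numbers had a median of -0.0055. Even so, 48 of 60 libraries were closest to their own number, a hint from the data of a link between them. The main permutation tests of the ratios treated the libraries as unpaired. Genes with few reads, such as Idi1 and Fads2 outside liver, are limited by depth.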
